A study of Mus musculus with 2 samples.

Results

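Nuclear genes that encode subunits of the respiratory chain and of ATP synthase were followed on 2 mouse expression arrays. The members are the genes whose symbols start with Ndufa, Ndufb, Ndufc, Ndufs or Ndufv (complex I, without the Ndufaf assembly factors), Uqcr (complex III), Cox4 to Cox8 (complex IV) or Atp5 (complex V), together with Sdha, Sdhb, Sdhc and Sdhd (complex II). They were found by matching probe accessions to RefSeq genes, which gave 85 members with 114 probes among 20144 genes with a probe. Another 3 protein-coding genes that fit these symbols, Ndufb1, Ndufb4b and Ndufb4c, matched no probe, nor did 19 pseudogenes. Of the 85 members, 83 were well above background on both arrays, and the testis forms Cox7b2 and Cox8c were on neither.

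RNA labelled as that of primary mouse keratinocytes, the cells that form the epidermis, was hybridised. There was 1 array for mice labelled Rac1Rac3-DKO and 1 array for mice labelled Rac3-KO, which the labels name as the control. The lack of Rac3 is thus shared by both groups, and Rac1 is the added deletion; both genes encode small GTPases that act on the actin cytoskeleton. The cell type label reads P3 primary keratinocytes, and neither the allele, nor a Cre driver, nor the number of mice is given in the sources used here. With 1 array per genotype there are no replicates, so differences between genotypes are unreplicated and untested. The errors given come from the scanner software or from probes of the same gene and hold no variation between cultures or mice.

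Levels are log2 processed signals minus the 75th percentile of their array, so that 0 is the 75th percentile, and a difference is the DKO-labelled array minus the Rac3-KO-labelled array. That percentile lay at a signal of 354 on the DKO-labelled array and 705 on the Rac3-KO-labelled array, and probes began to stand well above background at signals of 20.1 and 23.4. Rac1 had log2 levels of 5.10 on the DKO-labelled array and 4.82 on the Rac3-KO-labelled array, and Rac3 had -2.58 and -2.82 in the same order; both were well above background on both arrays. Neither gene bears out the labels, and a probe outside the deleted part checks nothing, so the arrays are called by their labels. Keratinocyte markers were present on both arrays, and so were markers of muscle, fat, fibroblasts and blood. Signals divided by the array's 75th percentile were summed over each marker list. On the DKO-labelled and Rac3-KO-labelled arrays the sums were 242 and 894 for 10 keratinocyte markers and 2380 and 414 for 15 skeletal muscle markers. They were 2496 and 1428 for 6 fibroblast markers and 1816 and 1038 for 4 red cell markers. Sums of unlike probes do not give shares of cells. In RNA of mixed cells, fewer cells of a type and less RNA per cell cannot be told apart.

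The respiratory chain passes electrons from NADH, through complex I, and from succinate, through complex II, to complex III and then to complex IV, which reduces oxygen. Complexes I, III and IV pump protons across the inner mitochondrial membrane, and ATP synthase, complex V, uses the gradient to make ATP. Most subunits are encoded by a single nuclear gene that is active in nearly every cell. Complex IV is different: several of its small subunits exist in a common form and in a form known from heart and skeletal muscle, and others have forms known from testis, from lung or from cells short of oxygen.

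The muscle forms of complex IV stood apart from the rest of the respiratory chain. On the DKO-labelled array Cox6a2, Cox8b and Cox7a1 were 7.57-fold, 3.09-fold and 2.28-fold higher, though on the scale set by spike-in RNAs Cox8b and Cox7a1 were lower. Their common partners Cox6a1, Cox8a and Cox7a2 differed by 0.08, 0.21 and 0.26 on the log2 scale, beside a software error of 0.20 for each. On the spike-in scale these partners had -1.99, -1.86 and -1.81. At the other end Ndufa4l2, a relative of the subunit gene Ndufa4 that is known as a gene of hypoxic cells, was 4.09-fold lower. No other measured member reached 2-fold. The 3 members past 2-fold above are 3.61% of the 83 measured, where 7.71% of all 14145 measured genes were, and the 1 member past 2-fold below is 1.20%, where the share over all measured genes was 6.62%. At a threshold of 1.5-fold, 5 members lay above and 2 below, where the shares over all genes were 18.2% and 16.5%, and at 3-fold, 2 members lay above and 1 below, where they were 2.29% and 2.23%. Large differences were thus rarer among the members than over the array at 1.5-fold and 2-fold, and near the array's share above 3-fold. Most members were brighter than most measured genes, and no comparison with genes of like level was made. Scaled to the median of each array, 891 genes lay past 2-fold above and 1152 below, in place of 1091 and 937, and the members' counts stayed at 3 and 1.

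Cox6a2 encodes the muscle and heart form of subunit 6A, a small subunit on the surface of complex IV. Its processed signal was 20241 on the DKO-labelled array and 5318 on the Rac3-KO-labelled array, or log2 levels of 5.84 and 2.92. Its difference of 2.92 was higher than that of 99.9% of measured genes. Cox6a1, the form of most other tissues, had levels of 7.79 and 7.71 in the same order. The muscle form differed by 2.84 (log2) more than the common form, with a software error of 0.29, and this gap ranged from 2.84 to 2.95 over 10 other ways of processing.

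Cox8b encodes the muscle form of subunit 8, the smallest kind of complex IV subunit, and is also known from brown fat. Its log2 level was 3.86 on the DKO-labelled array and 2.23 on the Rac3-KO-labelled array. The common form Cox8a had levels of 7.24 and 7.03, and its 2 probes differed by 0.21 and 0.10 between the arrays. Cox8b thus differed by 1.41 more than Cox8a, and by 1.33 with normexp background correction. Cox7a1, the muscle form of subunit 7A and likewise known from brown fat, had levels of 3.13 and 1.94 on the DKO-labelled and Rac3-KO-labelled arrays. The common form Cox7a2 had 5.13 and 4.87. The gap of this pair was the narrowest of the 3, 0.93 with a software error of 0.29. All 3 muscle forms had a single probe each, so no second probe checks them. On the scale set by spike-in RNAs, Cox6a2 remained higher by 0.85, while Cox8b and Cox7a1 had differences of -0.44 and -0.88; the gaps between the forms of a pair do not depend on that choice.

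**Figure D1:**
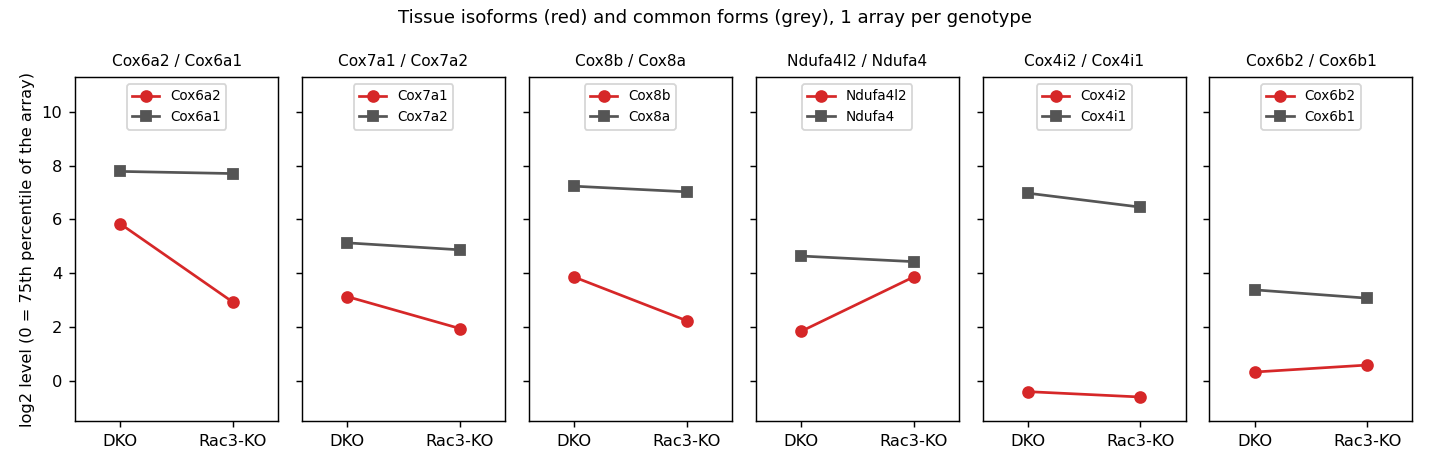
Log2 levels of 6 tissue forms (red circles) and their common forms (grey squares), with the DKO-labelled array left and the Rac3-KO-labelled array right in each panel and 1 array per genotype. The 3 muscle forms lie higher on the DKO-labelled array (Cox6a2 at 5.84 against 2.92; on the spike-in scale Cox8b and Cox7a1 are lower), Ndufa4l2 lies lower, and the common forms run nearly level; heights of different probes are not comparable.

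Of the tissue forms known from lung, hypoxia or testis, Cox4i2 and Cox6b2 differed little, and Cox7b2 and Cox8c had no readable difference. Cox4i2, the form of subunit 4 known from lung and from hypoxia, had log2 levels of -0.41 on the DKO-labelled array and -0.61 on the Rac3-KO-labelled array. The common form Cox4i1 had 6.98 and 6.46, a difference of 0.53, which is the highest among complex IV genes that are not tissue forms. Cox6b2, known from testis, was measured on both arrays at 0.32 and 0.58, and its common form Cox6b1 at 3.38 and 3.07. The pair differed by -0.57 (Cox6b2 minus Cox6b1), with a software error of 0.29. The testis forms Cox7b2 and Cox8c had signals of 4.74 and 4.65 on the DKO-labelled array and 5.80 and 6.17 on the Rac3-KO-labelled array, not well above background, so neither has a fold. The germ cell markers Acrv1, Ldhc, Prm1 and Tnp1 were not well above background on either array. The common form Cox7b had levels of 5.83 and 5.72.

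Ndufa4l2 was the lowest member. Its signal was 1257 on the DKO-labelled array and 10222 on the Rac3-KO-labelled array, or log2 levels of 1.83 and 3.86, and only 0.898% of measured genes had a lower difference. Ndufa4, first counted among complex I subunits and now regarded as a subunit of complex IV, had levels of 4.64 and 4.43. The difference of Ndufa4l2 was 2.24 (log2) below that of Ndufa4, with a software error of 0.29. The difference of Ndufa4l2 was -2.13 with scaling to the median and -4.10 on the spike-in scale.

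Promoters of members with separate tissue forms are shown because the muscle forms differed from their partners. Of the 85 members, 69 had a window in the RefSeq table of the GRCm38.p6 build. The windows run 250 bases up to the annotated start of the gene, 5′ to 3′ on the strand of the gene. Capitals mark matches, on either strand, to GCGCA, any base, then GCGC (the motif of NRF1, a regulator of mitochondrial genes), CCGGAAG (GABP, another such regulator) and CAGCTG (an E-box of the kind bound by muscle regulators), and no match overlaps another. The muscle forms Cox7a1 and Cox8b come first, then the common forms; Cox6a2 is not among the 69.
Cox7a1 (chr7:30183921-30184170, plus strand): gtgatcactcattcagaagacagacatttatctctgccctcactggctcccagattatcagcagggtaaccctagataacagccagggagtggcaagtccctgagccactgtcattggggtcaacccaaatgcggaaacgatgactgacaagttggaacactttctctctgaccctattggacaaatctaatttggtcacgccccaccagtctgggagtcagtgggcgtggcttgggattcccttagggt
Cox8b (chr7:140900447-140900696, minus strand): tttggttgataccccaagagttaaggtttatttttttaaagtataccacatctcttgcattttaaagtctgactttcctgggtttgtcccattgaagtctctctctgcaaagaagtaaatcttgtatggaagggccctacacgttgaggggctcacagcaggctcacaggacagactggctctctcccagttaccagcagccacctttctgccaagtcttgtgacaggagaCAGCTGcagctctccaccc
Cox6a1 (chr5:115348959-115349208, minus strand): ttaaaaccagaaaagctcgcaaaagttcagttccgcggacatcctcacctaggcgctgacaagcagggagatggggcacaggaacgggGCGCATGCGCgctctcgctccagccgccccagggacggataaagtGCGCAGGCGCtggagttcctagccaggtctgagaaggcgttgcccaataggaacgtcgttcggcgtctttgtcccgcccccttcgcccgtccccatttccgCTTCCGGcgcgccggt
Cox7a2 (chr9:79759854-79760103, minus strand): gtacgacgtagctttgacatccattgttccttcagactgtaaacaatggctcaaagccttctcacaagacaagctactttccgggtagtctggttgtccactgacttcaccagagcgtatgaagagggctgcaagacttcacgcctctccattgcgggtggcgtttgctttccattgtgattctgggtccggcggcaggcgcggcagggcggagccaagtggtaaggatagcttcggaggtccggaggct
Cox8a (chr19:7217617-7217866, minus strand): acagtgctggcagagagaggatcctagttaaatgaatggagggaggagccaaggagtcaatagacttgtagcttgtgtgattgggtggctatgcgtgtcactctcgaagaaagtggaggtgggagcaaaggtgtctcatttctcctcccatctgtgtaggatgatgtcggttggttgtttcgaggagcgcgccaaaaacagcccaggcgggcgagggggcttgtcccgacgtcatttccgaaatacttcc

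Cox6a1 held 2 matches to the NRF1 letters, which begin 162 and 117 bases before the start, and 1 to the GABP letters, 16 bases before it. Cox8b held 1 match to CAGCTG, 19 bases before the start. The windows of Cox7a1, Cox7a2 and Cox8a held no match to any motif searched, which says only that these letters are not in the 250 bases. The NRF1 letters stood in 13 of 69 member genes (18.8%) and in 4.23% of 27025 genes with a window. The GABP letters stood in 12 members (17.4%) and in 7.83% of all genes. CAGCTG, added after the data were seen, stood in 6 members (8.70%) and in 14.7% of all genes. TCAAGGTCA, the motif of the nuclear receptor ERR alpha, stood in 1 member (1.45%) and in 0.422% of all genes, and CTA, any 4 bases, then TAG, which covers sites of the muscle factor MEF2, in 1 member (1.45%) and in 3.70%. Member windows had a median GC content of 56.2%, against 52.4% over all windows, and a match is no evidence of binding.

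The common subunits kept close together. Without the tissue forms, 77 members were measured, and 0 of them passed 2-fold in either direction. The shares over the whole array were 7.71% above and 6.62% below. The members that did pass 2-fold, Cox6a2, Cox8b, Cox7a1 and Ndufa4l2, are tissue forms and so are left out of the 77. This split was made with earlier results of these data known. The 77 had a median difference of 0.20 (log2) and an interquartile range of 0.22, beside -0.01 and 0.81 over all measured genes. Their median log2 levels were 5.42 on the DKO-labelled array and 5.24 on the Rac3-KO-labelled array, against 0.87 and 0.94 over all measured genes. Genes of like level were not compared, so the narrow spread is not shown to be particular to these subunits. Of these 77, 67 lay above 0. Over all measured members 71 of 83 lay above 0 (85.5%) and 12 below, where the shares over all measured genes were 49.5% and 50.5%. The size of this shift depended on the processing, since the median of all members was 0.07 with normexp background correction, beside 0.00 for all genes, and 0.10 with quantile normalization, beside -0.04. On the spike-in scale nearly the whole array was lower, with a median of -2.08 for all genes and -1.87 for the members, so the direction of the shift holds only relative to other genes. Of the 77, 72 lay within 0.5 (log2) of 0, as did 58.6% of all measured genes.

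**Figure D2:**
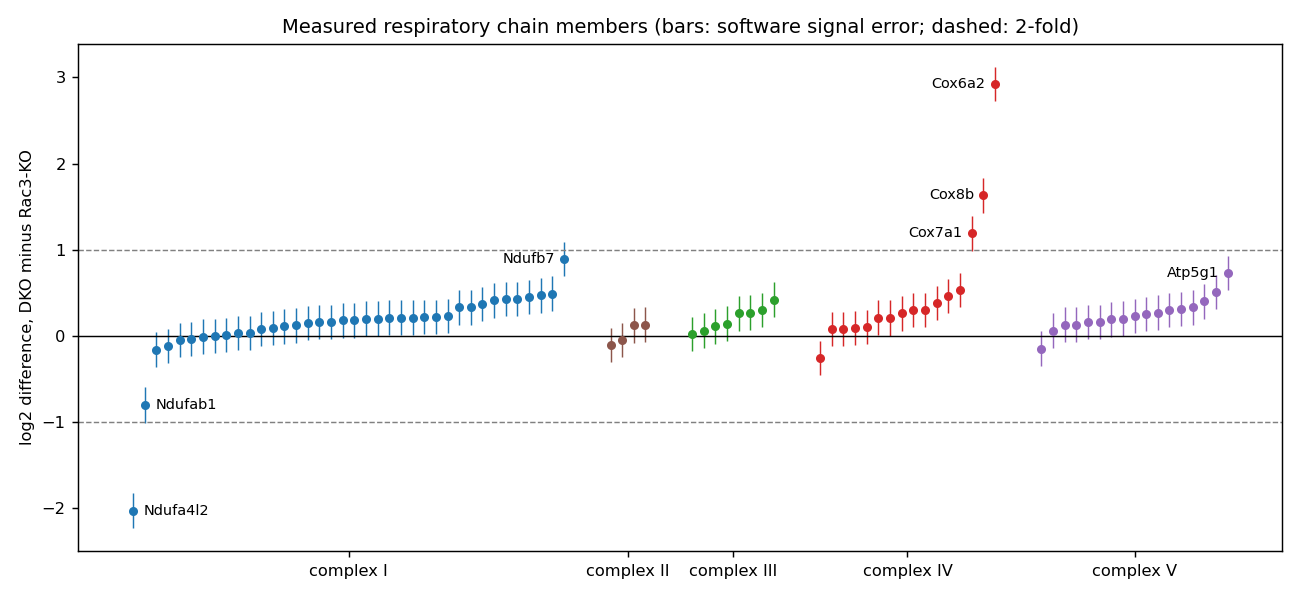
Log2 difference (DKO-labelled minus Rac3-KO-labelled array) of each of the 83 measured members, sorted within its complex. Bars are the software signal error and dashed lines mark 2-fold. Apart from Cox6a2, Cox8b, Cox7a1 and Ndufa4l2 the members lie between the lines. On the spike-in scale, not drawn, 80 members lie below the lower line (96.4%, beside 93.3% of all measured genes). Cox8b and Cox7a1 also lie below 0 there.

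Complex I, the NADH dehydrogenase and the largest of the complexes, had 38 members by symbol and a median difference of 0.18. Above 0 lay 30 of the 38, where 49.5% of all measured genes did. Its 7 nuclear core subunits, which carry the flavin and the iron-sulfur clusters or hold the ubiquinone site, had a median of 0.33 and ran from -0.01 for Ndufs1 to 0.49 for Ndufv2. Ndufs1, the largest core subunit, had log2 levels of 4.09 on both arrays. Ndufv2, a core subunit of the NADH-oxidising tip, had 4.97 on the DKO-labelled array and 4.48 on the Rac3-KO-labelled array. The 29 accessory subunits, which surround the core, had a median of 0.16. Among them Ndufa2 lay at the middle of the complex, with levels of 5.83 on the DKO-labelled array and 5.65 on the Rac3-KO-labelled array. Ndufa13, also known as a cell death factor, had 6.46 and 6.27.

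The widest differences among the common complex I subunits belonged to 2 accessory genes. Ndufb7 had log2 levels of 5.68 on the DKO-labelled array and 4.79 on the Rac3-KO-labelled array, 1.85-fold higher. With normexp its difference was 0.62 in place of 0.89. Ndufab1 encodes the mitochondrial acyl carrier protein, which also serves fatty acid and lipoic acid synthesis. Its levels were -0.29 and 0.50 on the DKO-labelled and Rac3-KO-labelled arrays, a 1.74-fold lower value; it was singled out after its value was seen. Each of these genes had 1 probe. Where a complex I gene had several, the probes mostly gave like differences, as for Ndufa5 at 0.46 and 0.47, but those of Ndufb11 gave 0.03 and -0.32, its second probe having signals of 97.9 on the DKO-labelled array and 242 on the Rac3-KO-labelled array.

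Complex II, succinate dehydrogenase, is the complex that also belongs to the tricarboxylic acid cycle. Its flavoprotein gene Sdha had log2 levels of 4.31 on the DKO-labelled array and 4.42 on the Rac3-KO-labelled array, and its iron-sulfur gene Sdhb had 5.94 and 5.80. The membrane anchor genes Sdhc and Sdhd had 3.67 and 3.72, and 4.91 and 4.79. All 4 differences, from -0.11 to 0.13, were smaller than their software error of 0.20. The median was 0.04, and -0.12 with normexp, so the complex had no direction that held.

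All 8 members of complex III, which passes electrons on to cytochrome c, had differences above 0, from 0.02 for Uqcrb to 0.42 for Uqcrq, with a median of 0.20. Of all measured members 85.5% lay above 0, and of all measured genes 49.5%. The core protein gene Uqcrc2 is spotted many times on the array, and its difference over 9 spots was 0.26 ± 0.03 (SD over spots), with single spots from 0.20 to 0.31. Repeated spots of 273 probes well above background had a median SD of 0.09. The core gene Uqcrc1 differed by 0.06, and the Rieske iron-sulfur gene Uqcrfs1 had log2 levels of 4.78 on the DKO-labelled array and 4.63 on the Rac3-KO-labelled array. Among the small subunits, Uqcrh, the hinge protein, had 6.56 and 6.45, and Uqcrq had 6.24 and 5.83. With normexp Uqcrb and Uqcrh had differences of -0.10 and -0.05, and with scaling to the median Uqcrb had -0.08.

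Complex IV, cytochrome c oxidase, had a median of 0.28 over 16 measured members and 0.26 over the 11 that are not tissue forms. All 11 lay above 0 on the main scale, where 49.5% of all measured genes did. With normexp Cox6a1, Cox7a2l and Cox7b had differences of -0.07, -0.14 and -0.03. Cox6a1 and Cox7a2l were also below 0 with scaling to the median and with quantile normalization. Cox5a and Cox5b, matrix-side subunits made from single genes, had log2 levels of 6.64 and 5.68 on the DKO-labelled array and 6.19 and 5.30 on the Rac3-KO-labelled array. Cox6c had 6.45 and 6.36, and Cox7c had 5.06 and 4.76, with its 3 probes between 0.30 and 0.32. Cox7a2l, a relative of Cox7a2 known for joining complexes III and IV into supercomplexes, had 6.41 and 6.32. Its 3 probes differed by -0.18, 0.07 and 0.08. The SD of the differences over members of complex IV was 0.78 with the tissue forms and 0.16 without them.

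Complex V, ATP synthase, had 17 members with a median of 0.23, and 16 lay above 0, where 49.5% of all measured genes did. In the catalytic head Atp5b, the beta subunit, had log2 levels of 7.62 on the DKO-labelled array and 7.32 on the Rac3-KO-labelled array, and Atp5a1, the alpha subunit, had 6.55 and 6.42. Atp5c1, the rotating gamma subunit, was the lowest, with 5.64 and 5.79 at its brighter probe, a difference of -0.15. Its dimmer probe gave 0.16. The epsilon subunit gene Atp5e had 6.70 and 6.19.

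The membrane ring of ATP synthase is built of subunit c, a single mature protein made from 3 genes. Atp5g1 had log2 levels of 6.53 on the DKO-labelled array and 5.80 on the Rac3-KO-labelled array, a difference of 0.73 and the highest of complex V. Atp5g2 had 7.28 and 7.12, and Atp5g3 had 7.20 and 6.89. Atp5g1 was thus 1.66-fold higher while its 2 sister genes differed by 0.16 and 0.31. The remaining 9 subunits of stalk and membrane part had differences from 0.06 for Atp5md to 0.40 for Atp5o. Atp5pb, subunit b of the stalk, stood at the middle of the complex with 4.66 and 4.43.

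Of the 83 measured members, 22 had several probes well above background. Their probes lay at most 0.35 apart in log2 difference, with a median gap of 0.08. In 6 of these members the probes went in opposite directions. A difference beyond 1.96 times its software error, the 95% range of signal error, was found for 17 of the 83 members, where the share over all measured genes was 48.5%. This is no test between genotypes.

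Other mitochondrial gene lists did not share the small shift throughout. Over all measured genes 7.71% lay past 2-fold above and 6.62% below, and the median was -0.01. Of 13 measured tricarboxylic acid cycle genes 0 were past 2-fold, with a median of 0.24. Suclg2, a subunit of a succinyl-CoA ligase, was the lowest at -0.78. Of 77 measured mitochondrial ribosomal protein genes 0 were past 2-fold and the median was -0.04, with Mrps34 at 0.49 and Mrps6 at -0.68. Of 42 measured assembly factors of the respiratory chain 1 lay past 2-fold above and 1 below, with a median of -0.12. These were Timmdc1 and Acad9, both complex I assembly factors, 2.24-fold higher and 2.09-fold lower. Of 16 fatty acid oxidation genes only Cpt1b was past 2-fold (median 0.01), and the lowest was the electron transfer flavoprotein dehydrogenase gene Etfdh at -0.22.

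Regulators of mitochondrial genes split. Of 17 measured, 4 lay past 2-fold above and 0 below, around a median of 0.04, where 7.71% of all measured genes lay past 2-fold above. Ppargc1a, the coactivator PGC-1alpha, had log2 levels of 0.58 on the DKO-labelled array and -1.51 on the Rac3-KO-labelled array, 4.25-fold higher. The orphan receptor gene Esrrb was 4.88-fold higher from dim signals of 71.4 and 29.1. Perm1, a muscle regulator, was 2.77-fold higher, also from dim signals of 72.2 and 51.7. Ppara, a receptor for fatty acids, was 2.31-fold higher. More widely active regulators stayed within 2-fold: Nrf1 had 1.99 and 1.96, Esrra 2.96 and 2.76, and Tfam, the mitochondrial DNA packaging factor, 1.63 and 1.82. Wider differences among these were -0.68 for Tfb1m, -0.59 for Twnk and -0.35 for Gabpa. On the spike-in scale none of the 4 reached 2-fold above: Esrrb had 0.22, Ppargc1a 0.02, Perm1 -0.60 and Ppara -0.86. The lowest regulator on the main scale was Pprc1, a relative of Ppargc1a, at -0.79.

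The pattern of muscle and common forms extended to other mitochondrial energy genes with such pairs. Ckmt2, the mitochondrial creatine kinase of striated muscle, had log2 levels of 2.85 on the DKO-labelled array and 0.31 on the Rac3-KO-labelled array, 5.80-fold higher. Its common relative Ckmt1 had 3.80 and 4.34. Slc25a4, the adenine nucleotide carrier of heart and muscle, had 7.16 and 6.09, against 4.16 and 4.23 for Slc25a5. Cpt1b, the muscle form of the enzyme that admits fatty acids to mitochondria, had 0.57 and -0.88, and Cpt1a, the liver form, 2.16 and 1.86. The gaps between the differences of the forms were 3.07, 1.14 and 1.14 (log2) in these 3 pairs. Spike-in scaling would lower the difference of every form by the same amount and leave these gaps unchanged. Slc25a4 and Cpt1b, with differences of 1.07 and 1.45, would then be lower on the DKO-labelled array. Ckmt2, with 2.54, would still be higher.

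Most markers of skeletal muscle, and most of slow muscle and heart, were higher on the DKO-labelled array, as the muscle forms were. All 15 skeletal muscle markers were measured, and 14 lay past 2-fold above on the DKO-labelled array, where 7.71% of all measured genes did. Their median difference was 2.48. On the spike-in scale only 14 of all 14145 measured genes lay past 2-fold above, so these counts hold only relative to other genes. The signals of the 15 markers, each divided by the 75th percentile of its array, summed to 2380 on the DKO-labelled array and 414 on the Rac3-KO-labelled array. Cox6a2 exceeded 13 of these 15 markers in its difference, Cox8b exceeded 3 and Cox7a1 exceeded only 1, Myh4. Of 8 markers of slow muscle and heart 7 lay past 2-fold above, with a median of 2.05 and summed scaled signals of 74.4 and 15.2. Of 5 heart markers 3 were measured on both arrays, Tnnt2, Nppa and Tnni3, with differences of 1.79, 0.71 and -0.07. Nppb had signals of 35.0 on the DKO-labelled array and 27.2 on the Rac3-KO-labelled array, and the latter was too dim to count. Myh6, the cardiac myosin gene, was not well above background on either array. The part of muscle RNA in the differences of the muscle forms was not tested.

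Brown fat, where Cox8b, Cox7a1 and Cpt1b are also known, gave mixed values. Ucp1, the uncoupling protein that defines brown fat, had log2 levels of -1.83 on the DKO-labelled array and 0.06 on the Rac3-KO-labelled array, a 3.72-fold lower value. Elovl3 and Cidea were 4.63-fold and 2.04-fold lower. The other 3 of the 6 markers listed were Dio2 at -0.42 and Cpt1b and Cox8b, which were higher. The summed scaled signals were 20.2 on the DKO-labelled array and 14.2 on the Rac3-KO-labelled array with the member Cox8b, and 5.67 and 9.52 without it. General adipocyte markers had a median difference of 0.62 over 6 measured of 7, with sums of 207 and 145. Of 10 keratinocyte markers 8 lay past 2-fold below, where 6.62% of all measured genes did, and 0 above. The median of the keratinocyte markers was -1.82, with sums of 242 and 894. Markers of fibroblasts, macrophages and leukocytes, red cells and endothelium had medians of 0.79, 1.16, 0.82 and 0.61. The part of any of these cells in the differences of the members was not tested.

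**Figure D3:**
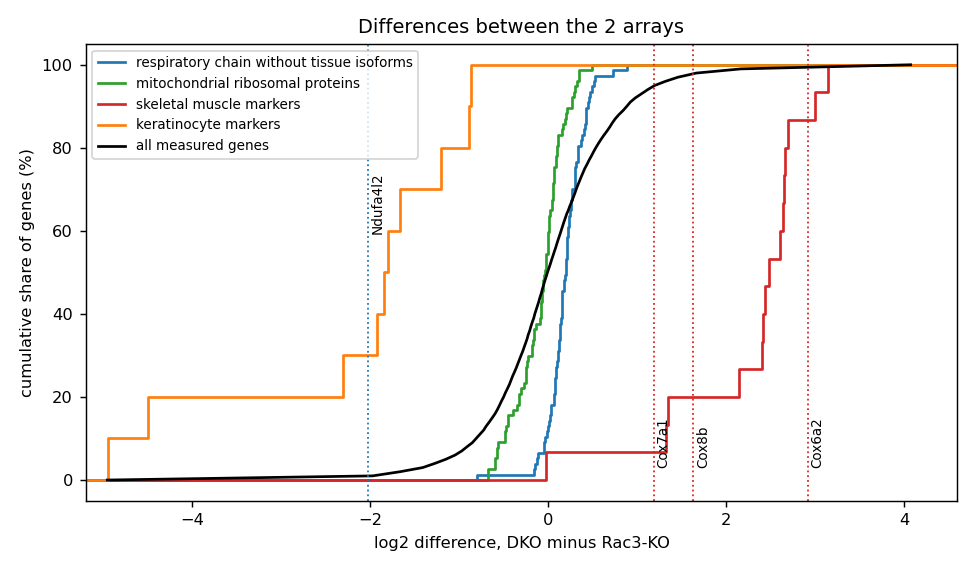
Cumulative share of genes (%) by log2 difference, DKO-labelled minus Rac3-KO-labelled array, for 77 common subunits, mitochondrial ribosomal proteins, skeletal muscle and keratinocyte markers and all 14145 measured genes; dotted lines mark 4 tissue forms. The common subunits rise steeply near 0.20, Cox6a2 lies among the muscle markers, and Ndufa4l2 lies within the span of the keratinocyte markers. Spike-in scaling would move every curve to the left by the same amount.

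**Figure D4:**
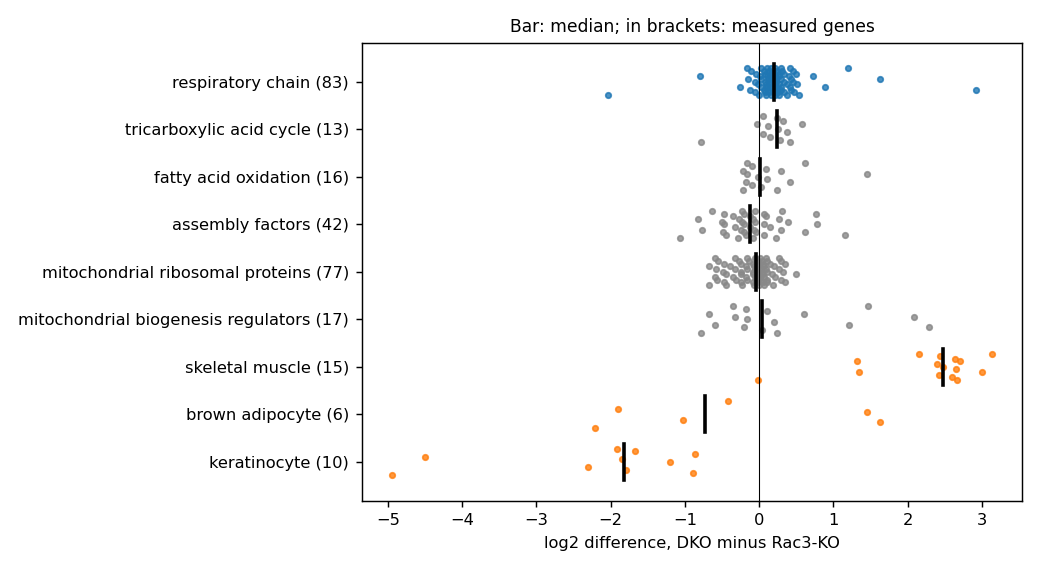
Log2 difference of each measured gene in the respiratory chain (blue), 5 other mitochondrial lists (grey) and 3 marker lists (orange), with black bars at the medians. Medians of the mitochondrial lists lie between -0.12 and 0.24, those of muscle and keratinocyte markers at 2.48 and -1.82, all relative to the 75th percentile of each array.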

How the data were processed

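Expression was measured on 1-colour (Cy3) Agilent arrays, 1 per genotype. The deposited scanner files hold spot intensity, which per the file headers Feature Extraction 10.10.1.1 produced, while version 9.1 stands in the submitters' processing notes. The authors' deposited table of log2 values differs from the log2 signal by 1 constant per array (within 0.001, for 100% of probes spotted once; column medians -3.62 for the DKO-labelled and -3.72 for the Rac3-KO-labelled array). No spot was saturated (0).

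For each probe the log2 processed signals of its spots were averaged, without control spots and outlier spots (190 on the DKO-labelled and 155 on the Rac3-KO-labelled array). This left 55678 probes, of which 26580 received 1 gene name through unversioned RefSeq accessions (GRCm38.p6 table, names only). Each array's 75th percentile was subtracted. A gene was represented by its brightest probe and counted as measured if both arrays had it well above background. Members, lists, motifs and named genes were chosen with earlier results of these data known. Named by rule were all tissue forms with their common forms, members at least 2-fold apart, Sdha to Sdhd, the highest, lowest, middle and brightest member of each complex, and list extremes; other names were chosen after values were seen. The calculation was tested on simulated data. Alternatives were normexp (offset 50, on median spot signals, the mean signal not being used here), 5 scalings, 2 filters, the mean over probes, outlier spots kept, the value table and thresholds of 1.5-fold and 3-fold. Tools were Python 3.11.15, pandas 2.3.3, statsmodels 0.14.6, R 4.3.3 and limma 3.58.1.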

Additional observations from a re-analysis of the deposited data

How the results depend on the processing

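Outside spike-in scaling and the fold threshold, the differences of the 29 named members moved by less than the 0.38 SD between probes of a gene, and the counts stayed within 1.5 times. Over these 10 settings the median of all members ran from 0.07 to 0.20 and those of complexes I, III, IV and V from 0.06 to 0.18, 0.09 to 0.20, 0.11 to 0.30 and 0.13 to 0.23, the lowest with normexp except for complex III, with quantile normalization. The median of the partners ran from 0.07 to 0.21, and that of the muscle forms was at most 1.63 and lowest with normexp. With thresholds of 1.5-fold, 5 members were higher and 2 lower; with 3-fold, 2 and 1. The 2 members added above were Ndufb7 and Atp5g1, and Ndufab1 was added below. Spike-in RNAs differed by 1.08 (log2) before scaling and the 75th percentile by -0.99, so spike-in scaling moved the median of all genes to -2.08. On that scale 0 members were at least 2-fold higher and 80 lower (96.4%), where 93.3% of all measured genes were lower, and the median was -1.87 for all members, -0.44 for the muscle forms and -1.86 for their partners, and -1.89, -2.03, -1.87, -1.79 and -1.84 for complexes I to V; Cox7a1 and Cox8b had -0.88 and -0.44. Members stood 0.21 above the median of all genes on that scale and on the main one, 0.07 with normexp and 0.06 with no detection filter. Medians of complex II, from -0.12 to 0.05, changed sign. No paired analysis was possible because each genotype has 1 array, and for the same reason no array could be left out. Precision is limited by the number of arrays, and dim probes lie near background. Mitochondrially encoded subunits were not analysed here.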
